A study of Mus musculus with 8 samples.

Results

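The genes described here encode the motors that move along microtubules, the kinesins and the cytoplasmic dyneins, in mouse brain cortex. They were taken by name and class: protein coding genes whose symbol starts with Kif and a digit, or with Klc, Dync or Dynl. This gave 41 of the 13996 genes with an FPKM value (fragments per kilobase of transcript, scaled to the mapped reads of the library), of which 12531 are protein coding. The rule itself uses no measured value, but it was chosen with earlier results of these data known. In the GENCODE M21 annotation of GRCm38, 59 genes carry such a name, and the other 18, among them the mitotic motors Kif11, Kif20a and Kif23, were not analysed here. By role, 27 of the 41 genes stand on the kinesin side (motor chains, Klc light chains and the kinesin-binding protein Kif1bp) and 14 on the dynein side.

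Cortexes came from 8 male C57BL/6 mice, 4 on a normal diet (Normal 1 to 4) and 4 on a diet with 60% fat by weight (HFD 1 to 4). Feeding began when the mice were 8 weeks old and ended at 16 weeks, and the labels describe the HFD mice as heavier and glucose intolerant by then. Each mouse gave 1 stranded library of rRNA-depleted total RNA. The study asked how this diet alters the RNAs of the cortex, so each gene was compared between the diets.

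Kinesins mostly walk toward the plus end of a microtubule and carry vesicles, organelles and RNA out along axons. Cytoplasmic dynein-1 walks toward the minus end and brings cargo back to the cell body, with dynactin and adaptor proteins loading it. Dynein-2 and kinesin-2 run transport inside cilia, and some kinesins move no cargo but shorten microtubules.

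The most abundant motor genes were those of axonal transport. Kif5a, a neuronal heavy chain of kinesin-1, came first with a mean of 370.1 ± 40.5 FPKM (SD, n = 4) in Normal mice and 420.4 ± 33.7 FPKM (n = 4) in HFD mice. Klc1, a light chain that links kinesin-1 to cargo, followed at 279.1 ± 9.3 and 287.2 ± 7.3 FPKM. Next in order of mean FPKM over the 8 mice were Kif1a, Kif5c, Dynll1, Dynlrb1, Kif1b, Dync1h1, Dynll2 and Kif3c. The values of Kif1a and Kif5c, neighbours in that order, changed places between the diets: Kif1a was below Kif5c in each mouse on the normal diet and above it in each HFD mouse. At the other end, Kif19a, Klc3, Kif6 and Kif27 lay between 0.7 and 2.3 FPKM in all mice, where rounding of the values to 0.1 FPKM limits the precision. Together the 41 genes made up 0.727% to 0.76% of the FPKM of protein coding genes in Normal mice and 0.777% to 0.809% in HFD mice, so the ranges did not overlap. This share weighs abundant genes most and is no measure of the typical motor gene. The mean of Kif1a alone was 186.8 FPKM in Normal mice and 262.4 FPKM in HFD mice.

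**Figure D1:**
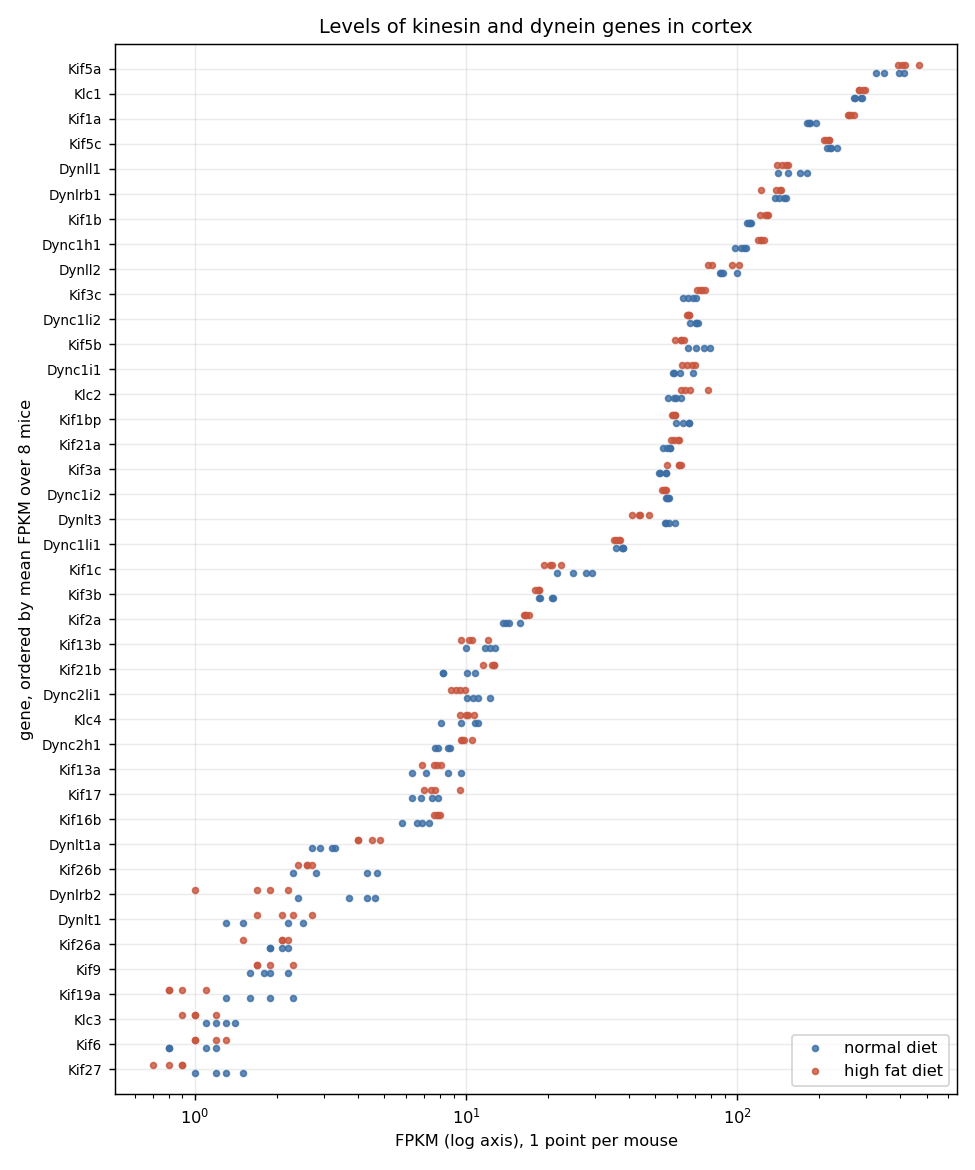
FPKM of each of the 41 motor genes on a log axis, 1 point per mouse, ordered by the mean over the 8 mice. Kif5a is highest in both diets, and the HFD points of Kif1a lie apart from the normal diet points.

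Differences between the diets were small for most motor genes. Values were taken as log2(FPKM + 0.1), which shrinks changes of low genes. A limma fit with a variance trend (two-sided, Benjamini-Hochberg adjustment over 13982 genes) gave an adjusted p below 0.05 for 17 of the 41, of which 9 were higher and 8 lower on the high fat diet. That is 41.5%, against 33.2% of 12519 protein coding genes tested, where 16.5% were higher and 16.8% lower. A change of more than 50% as well, meaning a fold change of over 1.5 in either direction, was found for 2 of the 41, Kif19a and Dynlrb2, both lower, whereas 5.7% of protein coding genes passed that rule, 2.65% higher and 3.04% lower. The diets did not overlap for 21 of the 41 genes, 12 higher and 9 lower, against 32.5% of protein coding genes, 16.3% higher and 16.1% lower. The median log2 fold change was -0.03 over the motor genes and -0.01 over protein coding genes, and the median size without sign was 0.19 and 0.16. The count of 17 fell to 11 without Normal 2 and to 10 without HFD 2, and the count of 8 lower genes fell to 5 without Normal 2, HFD 1 or HFD 3 and to 4 without HFD 2 or HFD 4. Over 12519 protein coding genes, 2062 higher and 2097 lower became 1522 and 1438 without Normal 2 and 1520 and 1463 without HFD 2. Lower ones numbered 1586, 1670 and 1771 without HFD 1, HFD 3 and HFD 4. After a correction for exon length and GC content, 5 instead of 9 motor genes were higher. With that correction 1704 of 12510 protein coding genes were higher and 2085 lower.

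**Figure D2:**
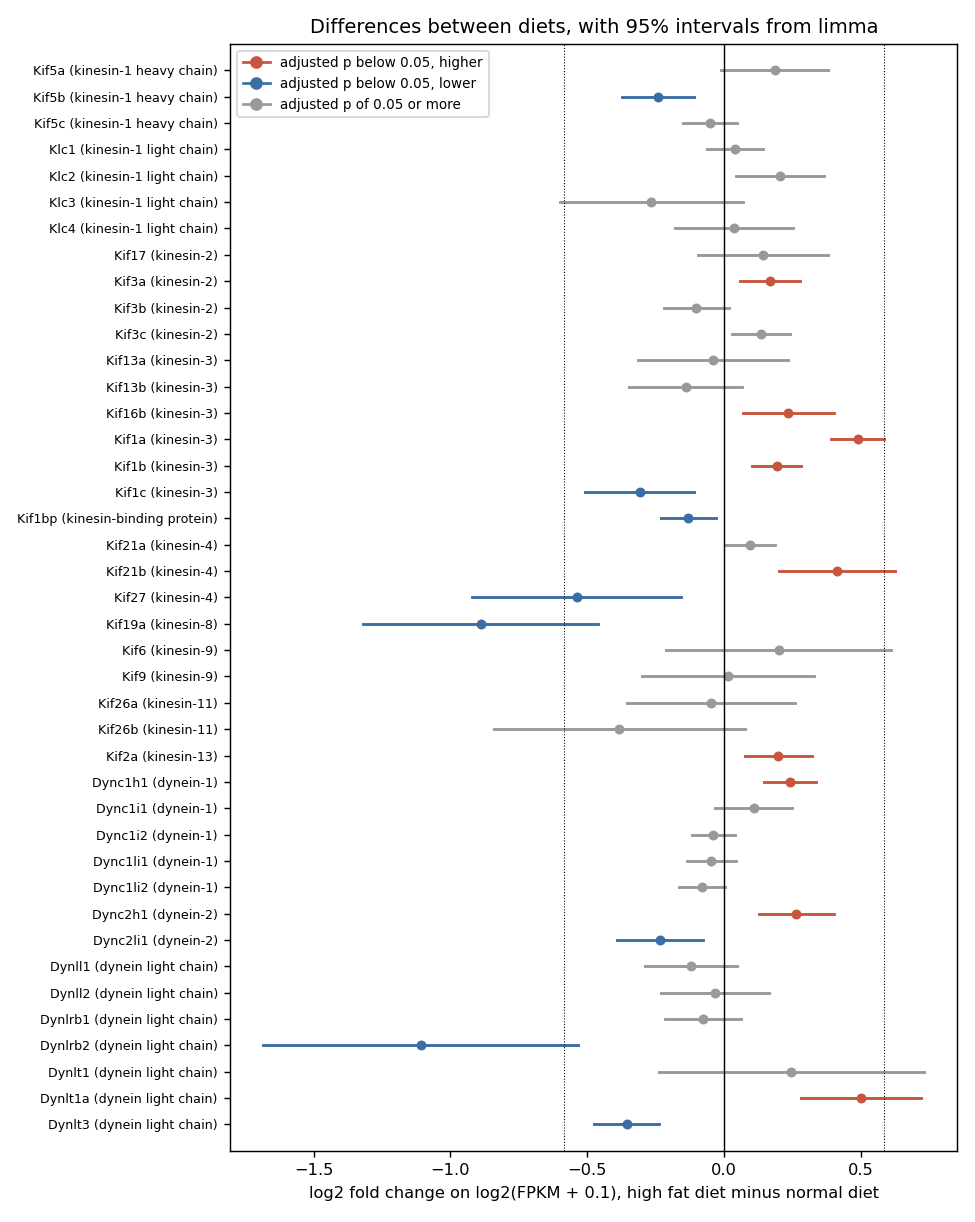
Log2 fold change of each motor gene with its 95% interval from limma, grouped by role, with red and blue for an adjusted p below 0.05 (higher and lower on the high fat diet) and dotted lines at a 50% change. Of the colored points, Kif1a, Kif21b and Dynlt1a lie farthest to the right and Kif19a and Dynlrb2 farthest to the left.

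The tissue samples differed in other ways that may bear on these genes. Markers of cortical projection neurons summed to 352.9 to 514.5 FPKM in Normal mice and 538.4 to 644.4 FPKM in HFD mice, with 8 of 8 genes among the values and 6 of them higher on the high fat diet. Markers of oligodendrocytes, the myelin-forming cells, summed to 2244.5 to 3687.6 FPKM and 1546.5 to 2136.9 FPKM, and 10 of 10 were lower on the high fat diet. Striatal markers (9 of 10 listed genes) spanned 238.8 to 440.1 FPKM in Normal mice and 79.4 to 88.9 FPKM in HFD mice. Cerebellar markers (7 of 8) were at 21, 232.1, 327.0 and 76.4 FPKM in Normal 1 to 4 and at 15.1 to 19.5 FPKM in the HFD mice, and Gabra6 and Cnpy1 were listed at 0 in some of the 8 mice. The part of these differences in the motor genes was not tested. Leaving out Normal 2 and Normal 3, the mice with the highest cerebellar sums, was a choice made after seeing the data. It left 12 motor genes past the adjusted p, 6 in each direction. Over 12519 protein coding genes that fit gave 1265 higher and 1178 lower, against 2062 and 2097 with all mice. The count of motor genes thus fell along with that of all genes. Normal 1 and Normal 4 still had striatal sums of 440.1 and 238.8 FPKM, above every HFD mouse. Their oligodendrocyte sums of 3025.4 and 2244.5 FPKM were above every HFD mouse too. The sums of striatal and cerebellar markers were thus lower in every HFD mouse than in every Normal mouse, in samples labelled cortex. Here the share of a region, the number of cells of a type and the RNA per cell cannot be told apart.

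The kinesin-3 family, which carries synaptic vesicle precursors, dense core vesicles and endosomes, held the motor gene with the lowest adjusted p. Kif1a (chromosome 1, 93015464 to 93101951, minus strand, GRCm38), the carrier of synaptic vesicle precursors along axons, had 185.5, 184.8, 181.6 and 195.2 FPKM in Normal 1 to 4 and 259.4, 263.9, 270.7 and 255.5 FPKM in HFD 1 to 4. Every HFD mouse was above every normal diet mouse. The mean rose by 40.5% (log2 fold change 0.49, standard error (SE) 0.043, adjusted p = 0.00026), and the call held without any single mouse. Kif1b, which moves mitochondria and synaptic vesicle precursors, had 110.4, 109.0, 111.6 and 112.1 FPKM in Normal mice and 121.1, 126.9, 128.4 and 130.5 FPKM in HFD mice. Its groups did not overlap either, and the difference was smaller (log2 fold change 0.19, SE 0.040, adjusted p = 0.00627). Correction for length and GC content reduced it to 0.09 with an adjusted p of 0.0948, while Kif1a stayed at 0.37 with an adjusted p of 0.000542.

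Kif1c, a relative of both that carries integrins and dense core vesicles, went the other way, with 24.9, 29.1, 27.6 and 21.7 FPKM in Normal mice and 20.4, 20.7, 22.5 and 19.4 FPKM in HFD mice. HFD 3 lay above Normal 4, so the groups overlapped. Its log2 fold change was -0.31 (SE 0.089, adjusted p = 0.0264). The call was lost without Normal 2, Normal 3, HFD 1, HFD 2 or HFD 4, with adjusted p from 0.0614 to 0.068, and leaving out Normal 2 and Normal 3 together gave -0.17 with an adjusted p of 0.171. The summed FPKM of Kif1a, Kif1b and Kif1c was 320.8 to 329.0 in Normal mice and 400.9 to 421.6 in HFD mice. Within it the share of Kif1a was 57.8% ± 1.2 and 64.0% ± 0.7 (SD, n = 4 each), and that of Kif1c was 8.0% ± 1.1 and 5.1% ± 0.2.

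Kif16b, which moves early endosomes, had 5.8 to 7.3 FPKM in Normal mice and 7.6 to 8.0 FPKM in HFD mice. This was a log2 fold change of 0.24 (SE 0.075, adjusted p = 0.0363), but the call was lost without any one of Normal 2, Normal 3 and HFD 1 to 4, with adjusted p from 0.0623 to 0.0783, and without Normal 2 and Normal 3 together it was 0.14 with an adjusted p of 0.176. Kif13a and Kif13b, carriers of endosomal membrane, did not pass, with 95% intervals of -0.31 to 0.24 and -0.35 to 0.07 on the log2 scale. Kif1bp, whose product binds kinesin motor domains and blocks their hold on microtubules, had 66.4, 63.3, 59.7 and 66.3 FPKM in Normal mice and 57.7 to 58.9 FPKM in HFD mice. The groups did not overlap (log2 fold change -0.13, SE 0.045, adjusted p = 0.0488). This call held only without Normal 3, since the adjusted p was 0.0764 to 0.109 without any other mouse, and it was 0.0839 without a variance trend.

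**Figure D3:**
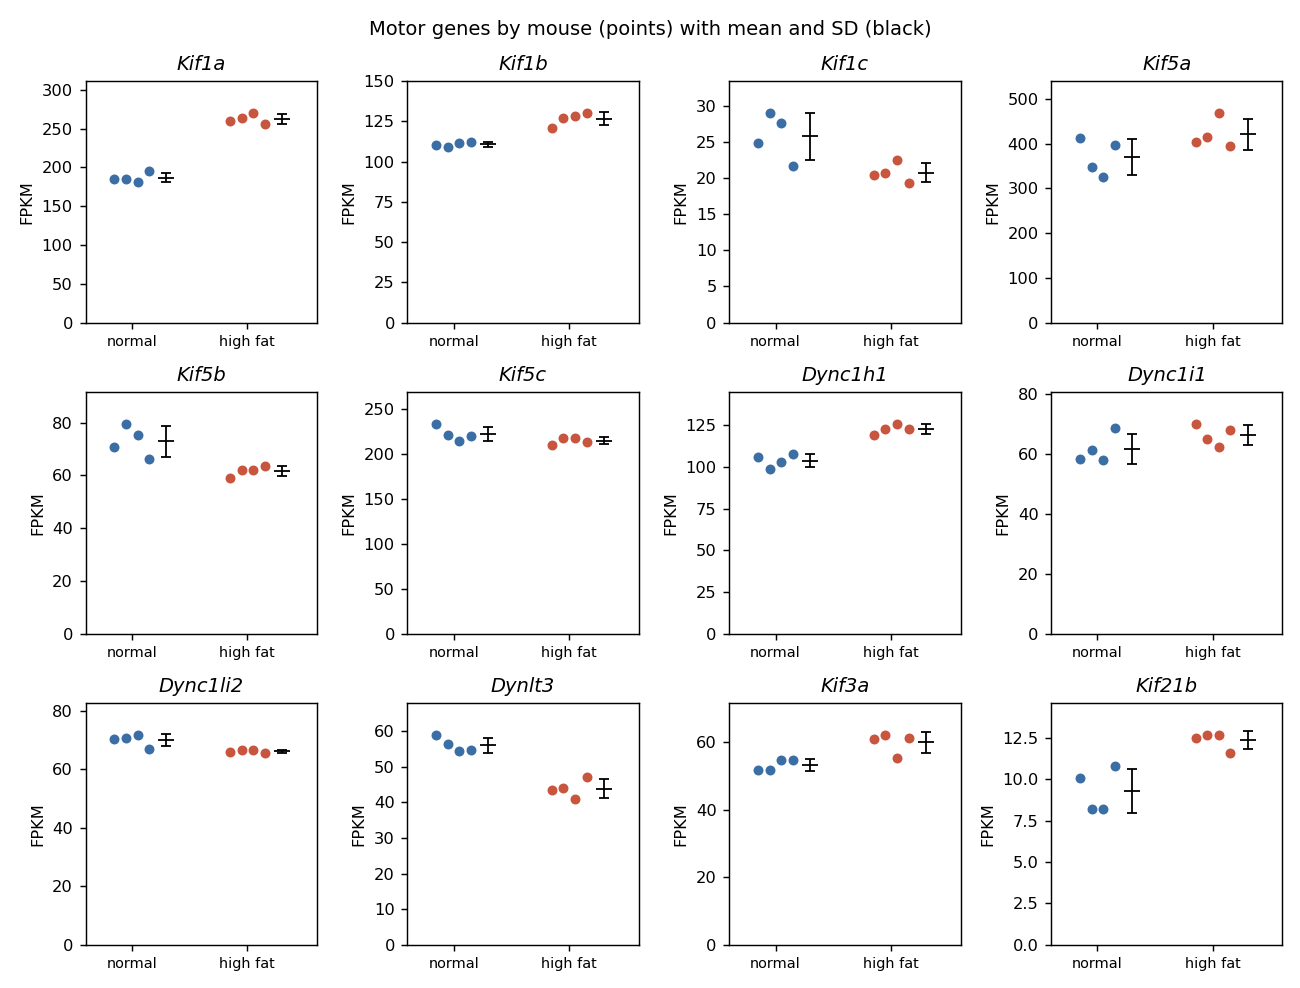
FPKM of 12 motor genes by mouse (points) with the mean and SD of each diet (black), on axes that start at 0. The HFD points of Kif1a, Kif1b, Dync1h1, Kif3a and Kif21b lie above and those of Kif5b and Dynlt3 below the normal diet points, while those of Kif5a, Kif5c and Dync1i1 overlap.

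Kinesin-1, the main motor of fast axonal transport, is built from a pair of heavy chains and a pair of light chains. Kif5a had 411.7, 348.6, 324.5 and 395.7 FPKM in Normal 1 to 4 and 404.1, 414.9, 469.3 and 393.4 FPKM in HFD 1 to 4. Normal 1 and Normal 4 lay among the HFD mice. Its log2 fold change was 0.19 with a 95% interval of -0.01 to 0.38 (adjusted p = 0.127). Kif5b, the heavy chain found in all cell types, had 70.8, 79.6, 75.3 and 66.1 FPKM in Normal mice and 58.9, 62.0, 62.0 and 63.5 FPKM in HFD mice. Every HFD mouse was below every normal diet mouse. The log2 fold change of -0.24 (SE 0.059, adjusted p = 0.0139) passed without any single mouse, whereas without Normal 2 and Normal 3 together it was -0.15 with an adjusted p of 0.0767. Kif5c, the third heavy chain, which is also neuronal, had 233.8, 221.2, 214.3 and 220.1 FPKM against 209.9, 217.8, 217.8 and 213.4 FPKM. The groups overlapped and the 95% interval was -0.15 to 0.05. Of the summed heavy chain FPKM, 614.1 to 716.3 in Normal mice and 670.3 to 749.1 in HFD mice, Kif5a took 55.5% ± 2.6 and 60.3% ± 1.7 (n = 4 each). Normal 2 and Normal 3, which had the lowest sums of cortical projection neuron markers (374.2 and 352.9 FPKM), also had the lowest Kif5a and the highest Kif5b of the 8 mice, and the part of these cells in the values was not tested.

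None of the 4 light chain genes passed. Klc1 had 286.4, 272.2, 270.0 and 287.8 FPKM in Normal mice and 296.1, 281.8, 290.2 and 280.6 FPKM in HFD mice, with a 95% interval of -0.06 to 0.14. Klc2, the second light chain of neurons, had 55.4 to 61.9 FPKM and 62.2 to 78.4 FPKM. Its groups did not overlap, but the adjusted p was 0.053 (log2 fold change 0.21, SE 0.072), and it was 0.0381 without HFD 4, 0.0295 under quantile normalization and 0.0486 in a fit of protein coding genes alone. After correction for length and GC content the log2 fold change was 0.10 with an adjusted p of 0.186, and without Normal 2 and Normal 3 the adjusted p was 0.203. Klc3 and Klc4 had 95% intervals of -0.60 to 0.07 and -0.18 to 0.25.

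Among the other kinesins of neurons, the groups did not overlap for Kif21b, Kif21a, Kif2a, Kif3a and Kif3c, all higher on the high fat diet. Kif21b, a motor that also limits microtubule growth in dendrites, had 10.1, 8.2, 8.2 and 10.8 FPKM in Normal mice and 12.5, 12.7, 12.7 and 11.6 FPKM in HFD mice. The lowest HFD mouse was above the highest normal diet mouse. Kif21b thus had a log2 fold change of 0.41 (SE 0.094, adjusted p = 0.00973), and it was 0.27 after correction for length and GC content and 0.24 without Normal 2 and Normal 3, with adjusted p of 0.0467 and 0.0384. Its paralog Kif21a had 53.5 to 56.6 FPKM and 57.2 to 61.0 FPKM, with an adjusted p of 0.0942. Kif2a, which takes microtubules apart at their ends and restrains axon branches, had 13.7 to 15.8 FPKM and 16.3 to 17.1 FPKM (log2 fold change 0.20, SE 0.054, adjusted p = 0.0198). The Kif2a call was lost without Normal 2 (adjusted p = 0.0558), without HFD 2 (0.0587) and after correction for length and GC content (0.0631), and without Normal 2 and Normal 3 together it was 0.14 with an adjusted p of 0.126.

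Kinesin-2 motors serve both axons and cilia. Kif3a, whose product pairs with KIF3B or KIF3C, had 51.7, 51.9, 54.7 and 54.8 FPKM in Normal mice and 61.1, 62.2, 55.2 and 61.2 FPKM in HFD mice. HFD 3 lay far from the other HFD mice and just above Normal 4. The log2 fold change was 0.17 (SE 0.049, adjusted p = 0.0276), with adjusted p of 0.0609 to 0.0783 without Normal 1, Normal 2, HFD 1, HFD 2 or HFD 4 of 0.0509 without a variance trend and of 0.0886 without Normal 2 and Normal 3 together. Kif3c had 68.5, 65.8, 63.1 and 70.6 FPKM against 72.9, 74.0, 76.4 and 71.0 FPKM. These groups were apart by less than 1 FPKM at their nearest mice. The adjusted p was 0.0509 (log2 fold change 0.14, SE 0.047), and it dropped to 0.0328 without Normal 4 and to 0.0198 under quantile normalization. The log2 fold change was 0.085 (adjusted p = 0.176) after correction for length and GC content and 0.081 (0.264) without Normal 2 and Normal 3. Kif3b had a 95% interval of -0.22 to 0.02, and without Normal 2 and Normal 3 a log2 fold change of -0.18 with an adjusted p of 0.0389. Kif17, a dendritic motor of glutamate receptor vesicles that also enters cilia, had an interval of -0.09 to 0.38. Kif26a and Kif26b, atypical kinesins without motor activity, did not pass either, and Kif26b had 4.3 and 4.7 FPKM in Normal 2 and Normal 3 but 2.3 to 2.8 FPKM in the other 6 mice. Without Normal 1 its log2 fold change was -0.56 with an adjusted p of 0.0328, and without Normal 2 and Normal 3 it was 0.02.

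Of the 5 genes of cytoplasmic dynein-1, the heavy chain differed between the diets and the other chains did not pass. Dync1h1 (chromosome 12, 110601452 to 110666945, plus strand), the motor chain itself, had 105.7, 98.5, 103.0 and 107.5 FPKM in Normal 1 to 4 and 119.0, 123.0, 125.9 and 122.5 FPKM in HFD 1 to 4. The groups did not overlap. The mean was 18.3% higher (log2 fold change 0.24, SE 0.043, adjusted p = 0.00339), and the call held without any single mouse. It did not hold after correction for length and GC content, where the log2 fold change was 0.08 with an adjusted p of 0.117, and its exons span 14342 bp. The intermediate chains Dync1i1 and Dync1i2, which bind dynactin, had 95% intervals of -0.03 to 0.25 and -0.12 to 0.04. For Dync1i1 the adjusted p was 0.0439 without Normal 4. The light intermediate chains Dync1li1 and Dync1li2, which bind cargo adaptors, had intervals of -0.14 to 0.04 and -0.17 to 0.01. For Dync1i2 and Dync1li2 each HFD mouse was still below each normal diet mouse, at 52.7 to 54.6 FPKM against 54.8 to 56.0 FPKM and at 65.6 to 66.6 FPKM against 67.0 to 71.8 FPKM.

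The dynein light chains fall into the Tctex (Dynlt), roadblock (Dynlrb) and LC8 (Dynll) families. Dynlt3 (chromosome X, 9654267 to 9663003, minus strand), the main Tctex chain by FPKM in these cortexes, had 58.9, 56.3, 54.3 and 54.6 FPKM in Normal mice and 43.3, 43.9, 40.8 and 47.2 FPKM in HFD mice. The highest HFD mouse was well below the lowest normal diet mouse. The mean fell by 21.8% (log2 fold change -0.36, SE 0.053, adjusted p = 0.00164), and the call held in all 8 fits without 1 mouse and all 11 other settings. Dynlt1a went up, with 2.9, 3.3, 3.2 and 2.7 FPKM against 4.8, 4.0, 4.0 and 4.5 FPKM (log2 fold change 0.50, SE 0.097, adjusted p = 0.00491), and its groups did not overlap. The row named Dynlt1, which is Dynlt1b in M21, had 1.5, 2.5, 2.2 and 1.3 FPKM against 2.7, 2.1, 2.3 and 1.7 FPKM, and did not pass (95% interval -0.24 to 0.73). The values of these copies are uncertain, because 80.7% of the 31-base words of Dynlt1b occur in Dynlt1a, and 65.4% of those of Dynlt1a occur in Dynlt1f, a copy not analysed here. Dynlt3 shares none of its 31-base words with them. The sum of Dynlt1 and Dynlt1a was 4.0 to 5.8 FPKM in Normal mice and 6.1 to 7.5 FPKM in HFD mice.

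The LC8 chains, which serve many protein complexes beside dynein, did not pass. Dynll1 had 181.3, 153.8, 141.3 and 170.1 FPKM in Normal mice and 151.7, 146.2, 140.9 and 153.9 FPKM in HFD mice (95% interval -0.29 to 0.05). Dynll2 had 86.2, 88.9, 99.6 and 87.5 FPKM against 80.8, 95.8, 101.2 and 78.0 FPKM (-0.23 to 0.17). Both overlapped between the diets, although the log2 fold change of Dynll1 was -0.25 with an adjusted p of 0.022 without Normal 2 and Normal 3. Dynlrb1, the common roadblock chain, had 151.5, 148.5, 137.5 and 142.2 FPKM against 139.5, 122.3, 144.0 and 144.6 FPKM and overlapped as well (-0.22 to 0.06).

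The 2 motor genes past the 50% rule, both lower in HFD mice, belong to motile cilia, which the brain carries on the ependymal cells that line its ventricles. Dynlrb2 (chromosome 8, 116504974 to 116515915, plus strand), the roadblock chain of ciliated cells, had 3.7, 4.3, 4.6 and 2.4 FPKM in Normal mice and 1.0, 1.7, 2.2 and 1.9 FPKM in HFD mice. The HFD mice were all below the normal diet mice. Its log2 fold change was -1.11 (SE 0.26, adjusted p = 0.0105). It passed without any single mouse, and without Normal 2 and Normal 3 together it was -0.83 with an adjusted p of 0.0913. Kif19a (chromosome 11, 114765388 to 114790739, plus strand), which shortens microtubules at the tips of motile cilia, had 2.3, 1.6, 1.9 and 1.3 FPKM against 0.8, 0.9, 1.1 and 0.8 FPKM. Its groups did not overlap either, with a log2 fold change of -0.89 (SE 0.19, adjusted p = 0.00781). With 1 instead of 0.1 added before taking logarithms the log2 fold change was -0.54, short of the 50% rule.

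Kif27, a kinesin-4 needed to build motile cilia, had 1.5, 1.2, 1.3 and 1.0 FPKM in Normal mice and 0.7, 0.8, 0.9 and 0.9 FPKM in HFD mice. The lowest normal diet mouse was only 0.1 FPKM above the highest HFD mice, which is the rounding step. The log2 fold change was -0.54 (SE 0.17, adjusted p = 0.0369), and only leaving out Normal 4 kept the call, with adjusted p of 0.0508 to 0.0925 without any other mouse and of 0.145 without Normal 2 and Normal 3 together. Kif6 and Kif9, kinesins of the axoneme of motile cilia, did not pass, at 0.8 to 1.2 FPKM against 1.0 to 1.3 FPKM and at 1.6 to 2.2 FPKM against 1.7 to 2.3 FPKM. Their 95% intervals were -0.21 to 0.61 and -0.30 to 0.33.

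The sum of ependymal markers was also lower on the high fat diet, as were the 3 motor genes Dynlrb2, Kif19a and Kif27. The 6 of 8 listed genes with values summed to 13.8, 20.4, 22.9 and 13.4 FPKM in Normal 1 to 4 and to 5.5, 7.5, 10.1 and 9.4 FPKM in HFD 1 to 4, and none was at 0. Of the 6, Foxj1, Ccdc153, Tmem212 and Rsph1 fell (log2 fold changes -1.25, -1.95, -1.92 and -0.86), while Tekt1 and Enkur did not pass. The marker sum and the 3 motor genes were lower in each HFD mouse than in each normal diet mouse. Within the normal diet, Dynlrb2 was highest in Normal 3 like the marker sum, but Kif19a and Kif27 were highest in Normal 1. The part of the ependyma in the result was not tested. Dnah5, an axonemal dynein heavy chain and thus a gene of motile cilia too, was higher, at 1.0 to 1.2 FPKM against 1.4 to 1.7 FPKM (log2 fold change 0.47, SE 0.14, adjusted p = 0.0263), and Dnah9, Dnaic1 and Dnal1 did not pass.

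**Figure D4:**
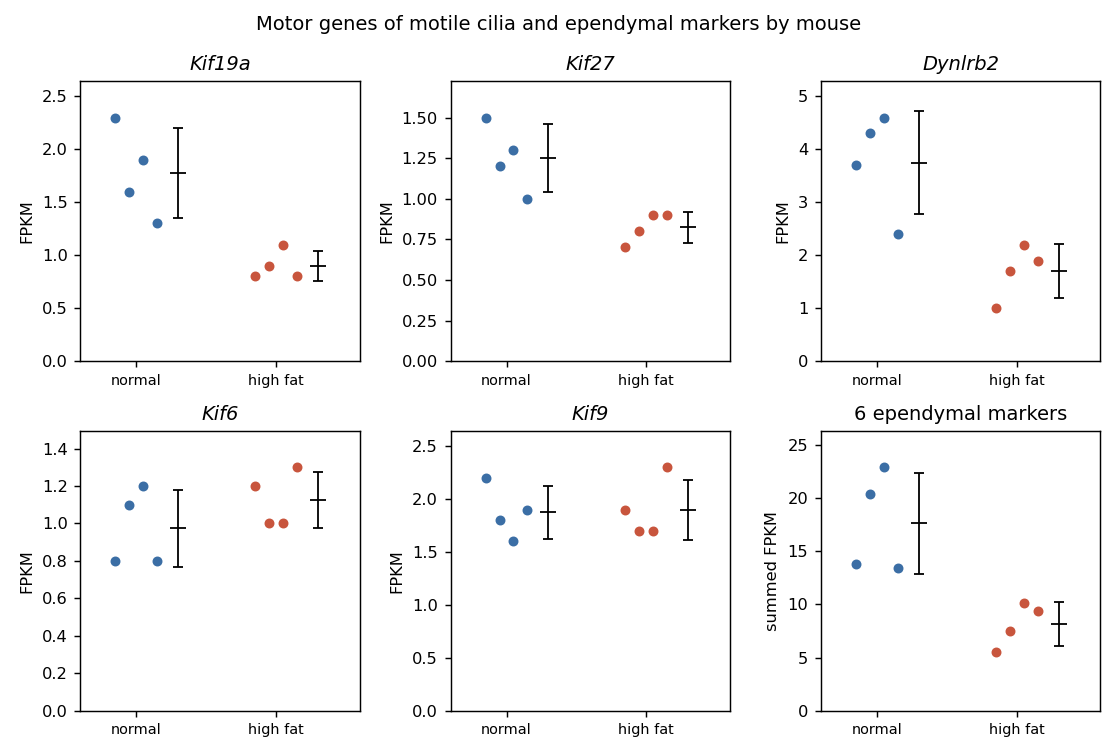
FPKM of 5 motor genes of motile cilia and the summed FPKM of 6 ependymal marker genes by mouse (points), with the mean and SD of each diet, on axes that start at 0. Kif19a, Kif27, Dynlrb2 and the marker sum are lower in every HFD mouse, while Kif6 and Kif9 overlap.

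The name rule took 2 genes of dynein-2, the return motor inside cilia, and these 2 also divided. Its other genes Wdr34, Wdr60 and Tctex1d2 are counted below with intraflagellar transport. The heavy chain Dync2h1 had 7.9, 8.7, 7.7 and 8.6 FPKM in Normal mice and 9.6, 9.7, 10.5 and 9.8 FPKM in HFD mice. The light intermediate chain Dync2li1 had 12.3, 10.1, 10.6 and 11.1 FPKM against 9.9, 9.5, 9.2 and 8.8 FPKM. Neither gene overlapped between the diets, and they differed in opposite directions. For Dync2h1 the log2 fold change was 0.27 (SE 0.061, adjusted p = 0.0104), and correction for length and GC content gave 0.19 with an adjusted p of 0.0538. For Dync2li1 it was -0.23 (SE 0.071, adjusted p = 0.0312), with adjusted p of 0.0569 to 0.0759 without Normal 1, Normal 4, HFD 2, HFD 3 or HFD 4, and the correction gave -0.16 with an adjusted p of 0.117.

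Promoter sequence was read for the cilia genes, since RFX factors, which drive many of them, bind the X-box. RefSeq windows of GRCm38.p6 were available for 29 of the 41 genes (35 windows), and the 250 bases before the annotated start were searched on both strands for the half-site GTTGCC and for a pair form, GTTGCCNNGCAAC, which contains the half-site. These motifs were chosen after the Dynlrb2 sequence had been read. The half-site lay in 11 of 35 motor gene windows (31.4%, 10 genes), against 10.4% of 32851 windows. The 10 genes were Dync1i1, Dync1i2, Dynll1, Dynlrb2, Kif16b, Kif17, Kif3a, Kif3c, Kif9 and Klc3, so they were not only genes of cilia. Because Dynlrb2, which prompted the motif, is in the count, the count is no independent test. The pair form lay in 42 windows of all (0.128%) and in those of Dynlrb2 and Kif17. Dynlrb2 and Kif17 are therefore shown, each from 250 bases before the RefSeq start to the end of the motif, with the pair form in capitals, at chr8:116504765-116504976 (plus strand) and chr4:138262001-138262190 (plus strand).
Dynlrb2: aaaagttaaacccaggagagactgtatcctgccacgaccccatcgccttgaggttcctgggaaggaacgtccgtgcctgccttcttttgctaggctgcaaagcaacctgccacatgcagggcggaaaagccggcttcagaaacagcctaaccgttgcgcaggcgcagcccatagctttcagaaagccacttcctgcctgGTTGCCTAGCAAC
Kif17: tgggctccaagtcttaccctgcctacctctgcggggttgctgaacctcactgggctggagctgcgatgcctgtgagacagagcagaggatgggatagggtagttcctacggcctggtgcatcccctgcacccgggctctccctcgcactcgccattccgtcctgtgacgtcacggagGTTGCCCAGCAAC
The match ended 39 bases before the start in Dynlrb2 and 61 bases before it in Kif17. In M21 Dynlrb2 starts inside the motif, and the Kif17 window lies within the gene, downstream of the start of its longest transcript. Of these genes Dynlrb2 was lower on the high fat diet, and Kif17 did not pass, with 6.3 to 7.9 FPKM against 7.0 to 9.5 FPKM. Kif19a has no window in the sequences used.

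Ratios between related motor genes were also compared in each mouse. For 14 pairs the difference between diets in the mean log2 ratio was tested with exact permutation of the mice (two-sided, 70 assignments), whose smallest p is 0.0286. The ratio did not overlap between diets, and so had this smallest p, for 7 pairs. No share over other gene pairs was computed to set beside this count, and single protein coding genes did not overlap in 32.5% of cases. The adjusted p of these over 14 pairs was 0.0571, so 0 pairs passed 0.05, and 9 pairs at the smallest p would have been needed. The log2 ratio of Kif5a to Kif5b was 2.34 ± 0.26 in Normal mice and 2.77 ± 0.12 in HFD mice (SD, n = 4 each), a difference of 0.43. For Kif1a to Kif1b it was 0.75 ± 0.04 and 1.05 ± 0.06, a difference of 0.30. For Kif3a to Kif3b the difference was 0.27 and for Kif5a to Kif5c 0.24, while Dynlrb1 to Dynlrb2 had 1.03. The ratios of Kif5b to Kif5c and of Klc1 to Klc2 were lower by 0.19 and 0.16. Pairs that share a gene, such as those among Kif5a, Kif5b and Kif5c, are not independent of each other.

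**Figure D5:**
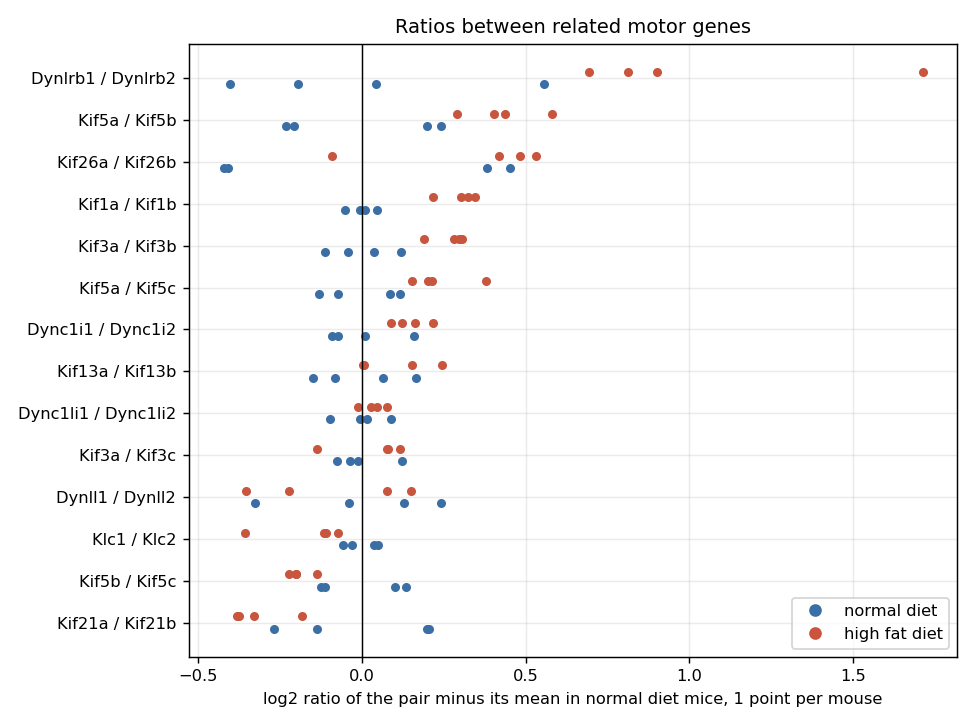
Log2 ratio of 14 pairs of related motor genes minus the mean of the normal diet mice, 1 point per mouse, ordered by the mean of the HFD mice. The diets do not overlap for 7 of the 14 pairs, among them Kif5a/Kif5b, Kif1a/Kif1b and Dynlrb1/Dynlrb2. No share over other gene pairs was computed.

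Genes that work with the motors were counted in lists set by function, to be read against the 33.2% of protein coding genes called (16.5% higher, 16.8% lower). Of 24 dynactin and dynein regulator genes with values (26 listed), 4 were higher and 4 lower (33.3%, close to the share over all genes), with a median log2 fold change of -0.04. The higher ones were Dctn1, the large dynactin subunit that grips microtubules (mean 89.5 FPKM in Normal mice and 102.7 FPKM in HFD mice, log2 fold change 0.20), Bicdl1, Hook2 and Rab11fip3, which are adaptors. The lower ones, Dctn6, Actr10, Capza2 and Capzb (log2 fold changes -0.17, -0.25, -0.29 and -0.14), encode subunits at the ends of the dynactin filament. Other genes of these ends, Dctn4, Dctn5 and Capza1, did not pass (-0.09, -0.05 and -0.15). Of 24 kinesin cargo adaptor genes with values (26 listed), 8 were higher and 4 lower (50% in all). Among them Trak1 and Trak2, which tie motors to mitochondria, differed in opposite directions (0.32 and -0.22), and Rhot1, their anchor on the mitochondrion, was lower (-0.28). Madd, an adaptor that loads Kif1a and Kif1b, had 39.7, 40.4, 38.9 and 43.4 FPKM in Normal mice and 50.4, 53.9, 55.6 and 50.6 FPKM in HFD mice, without overlap (log2 fold change 0.37, SE 0.051, adjusted p = 0.00128). Arl8a and Plekhm2, which join lysosomes and synaptic vesicle precursors to kinesins, were higher as well (0.40 and 0.38). Arl8b, the more abundant paralog of Arl8a (mean 66.6 FPKM in Normal mice), and Borcs5 did not pass (-0.06 and 0.11). Fez1 and Fez2 were lower (-0.32 and -0.29).

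For the tracks themselves, 12 of 28 microtubule-associated protein genes were higher and 0 lower by limma, with 13 at an unadjusted p below 0.05, and the median log2 fold change was 0.13. That is 42.9% higher, against 16.5% of all protein coding genes and 26.3% of those with exons of at least 5000 bp. They included Map1a (0.39), Map6 (0.26), Mapre3 (0.40) and Camsap3 (0.56), which stabilize or cap microtubules, but also Stmn1 (0.29), which takes them apart. Of 12 tubulin genes with values (14 listed), Tubb4a and Tubg2 were higher and Tuba8 was lower, the last past the 50% rule (log2 fold change -0.77). Of 25 intraflagellar transport genes with values (26 listed), Ift122 was higher and Ift74 and Tctex1d2 were lower (0.19, -0.20 and -0.25). That was 12% in all against 33.2% over all protein coding genes. Wdr34 and Wdr60 in this list, which like Tctex1d2 encode subunits of dynein-2, did not pass (0.14 and 0.07). Kifc2, a kinesin with its motor at the other end of the chain and outside the name rule, was higher at 147.9 to 158.7 FPKM against 92.5 to 129.2 FPKM (log2 fold change 0.46). Over all these lists 29 of 119 genes with values were higher and 11 lower, 33.6% in all. After correction for length and GC content the counts were 21 and 15, and without Normal 2 and Normal 3 they were 20 and 5. Over protein coding genes the correction gave 1704 higher and 2085 lower of 12510. Without Normal 2 and Normal 3 there were 1265 higher and 1178 lower of 12519.

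Direction also went with the exon length of the gene, at a division of 5000 bp set after seeing the data. Of 19 motor genes with exons of at least 5000 bp, 7 were higher and 3 lower on the high fat diet, and of 22 shorter ones, 2 were higher and 5 lower. Among protein coding genes of the same classes, 26.3% were higher and 12.1% lower in the longer class, and 12.9% and 18.5% in the shorter. The part of length alone in the motor gene calls was not tested. The joint correction for length and GC content ended the calls of Dync1h1, Kif1b, Dync2h1, Kif2a and Dync2li1, of which the last has exons of 1354 bp, and kept those of Kif1a, Kif21b, Dynlt1a, Kif3a and Kif16b among the higher genes.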

How the data were processed

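RNA sequencing was performed on cortexes of 8 mice. The authors trimmed reads with Trimmomatic, aligned them with STAR (mm10) and made the deposited FPKM values with Cuffnorm and GENCODE M17 on GRCm38.p6. Tool versions and the use of strand in counting were not stated. The authors kept genes with a mean FPKM of 1 or more and no 0; here 12 of 13996 genes held a 0 and 2 had a lower mean, and these 14 were not tested. Depth cannot be read from FPKM, which was deposited to the nearest 0.1. Per mouse, FPKM summed to 562431 to 639142. Each p-value measures the spread between these mice, whose housing is not given.

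All genes past this filter were fitted in limma (version 3.58.1, R 4.3.3) on log2(FPKM + 0.1) with a variance trend. Python 3.11.15 (numpy 2.4.6, pandas 2.3.3, scipy 1.17.1, matplotlib 3.10.9) served for the rest. Gene coordinates and exon lengths are those of GENCODE M21, which is later than M17. Length and GC content were corrected by loess (span 0.5) in each mouse, with both known for 99.9% of genes. The fit was tested on simulated data with independent noise for each gene. These data held no shift shared by many genes, such as one of tissue composition. The simulation therefore cannot show how such a shift enters the calls. The motor genes, the lists and the pairs were chosen with earlier results of these data known. Each motor gene could be named, and values for each mouse are given at least for those with a change over 50%, the 10 lowest adjusted p, the 10 highest mean FPKM and near-identical copies. Of the motor genes 41 of 41 passed the filter on low values. The marker lists were those of cortical projection neurons, interneurons, striatum, thalamus, cerebellum, oligodendrocytes, their precursors, astrocytes, microglia, choroid plexus, ependyma and dividing cells. Alternatives were other added constants, filters, scalings and variance models, a fit of protein coding genes alone, the replicate number as a block, and each mouse left out in turn. The second quantification by Salmon and edgeR was not used.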

Additional observations from a re-analysis of the deposited data

Results flagged for a closer look

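In each diet and for each motor gene, the highest and the lowest of the 4 mice were compared with the others, 82 groups in all, and 2 groups held a mouse far from the rest. Chance would give such a gap in about 1 in 20 groups. For Kif26a, HFD 4 had 1.5 FPKM while the other HFD mice had 2.1 to 2.2 FPKM, a gap of 0.857 of the whole range. Without HFD 4 the log2 fold change of Kif26a was 0.07 instead of -0.05, and neither passed. For Kif3a, HFD 3 had 55.2 FPKM while the other HFD mice had 61.1 to 62.2 FPKM, a gap of 0.843 of the range. In HFD 3 the myelin marker sum was the highest of the HFD mice (2136.9 FPKM), and in HFD 4 that of the choroid plexus was the highest of all mice (943.9 FPKM). The part of either in these values was not tested.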

How the results depend on the processing

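Of the 17 motor genes past the adjusted p, Kif1a, Dynlt3, Dynlt1a, Kif19a and Kif21b passed under each alternative in which they were tested. Dynlt1a and Kif19a were too low to be tested with a mean FPKM of at least 5. No alternative addressed the sequence that Dynlt1a shares with its copies (65.4% of its 31-base words occur in Dynlt1f). Leaving out 1 mouse gave 10 to 17 genes past the adjusted p, 6 to 11 of them higher and 4 to 6 lower, 2 to 3 with a change over 50%, 32 to 42 genes of the companion lists, and 0 pairs past an adjusted p of 0.05. Over protein coding genes, leaving out 1 mouse gave 1520 to 2062 higher and 1438 to 2099 lower. The count of lower motor genes was 5 with a mean FPKM of at least 5, which removes the low genes. The higher count was 5 after correction for length and GC content. The 2 genes with a change over 50%, both lower, became 1 with an added constant of 1 and 0 with a mean FPKM of at least 5. They became 3 with an added constant of 0.01 and after quantile normalization. Kif27 was then included, at -0.586 and -0.592 (adjusted p by limma 0.0376 and 0.0271). Without Normal 2 and Normal 3, a setting chosen after seeing the data, 1 was higher (Dynlt1a, 0.61) and 1 lower (Kif19a), and the genes of the companion lists went from 40 to 25, with 5 lower. Some uncalled genes changed sign: without Normal 2 and Normal 3 Dynll2 was at 0.026, Kif13a at 0.18, Kif26b at 0.019 (from -0.38) and Kif9 at -0.11; Kif9 was at -0.023 after quantile normalization, and Klc1 and Klc4 at -0.016 and -0.038 after the length and GC correction. Leaving out 1 mouse gave ranges that cross 0 for Dynll2 (-0.097 to 0.028), Kif13a (-0.14 to 0.060), Kif26a (-0.10 to 0.074), Kif9 (-0.075 to 0.093) and Klc4 (-0.054 to 0.096). Except where a filter removes genes or a setting removes mice, the cause was not tested.

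With the replicate number as a block, 12 motor genes passed (6 higher, 6 lower) and 31 companion genes, and Kif16b, Kif1bp, Kif27, Kif2a and Kif3a lost the call. Of 12519 protein coding genes, 1510 were higher and 1508 lower with this block. The replicate numbers were not a pairing: deviations of mice with the same number correlated at -0.038, -0.028, -0.109 and -0.072. The depth behind the FPKM values is unknown, and below about 2 FPKM a step of 0.1 is a large part of the value.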

Other observations

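Marker lists that the motor genes were not set against were also measured. Interneuron markers summed to 431.5 to 491.7 FPKM on the normal diet and 386.5 to 428.6 FPKM on the high fat diet, with 4 of 6 genes lower and 1 higher. Markers of oligodendrocyte precursors summed to 79.1 to 110.3 FPKM and 63.5 to 71.6 FPKM, with 3 of 6 lower and 1 higher. Astrocyte markers overlapped at 689.1 to 713.6 FPKM and 682.4 to 724.3 FPKM, with 2 of 6 lower and 1 higher, and microglial markers did as well at 101.5 to 122.3 FPKM and 107.2 to 118.2 FPKM, with 0 of 5 past the adjusted p by limma and 1 at an unadjusted p below 0.05. Thalamic markers summed to 30.2 to 99.1 FPKM and 27.2 to 30.0 FPKM, with 1 of 6 lower. Choroid plexus markers ran from 343.9 to 728.5 FPKM and from 21.2 to 943.9 FPKM, with 2 of 6 lower. None of the 7 markers of dividing cells was among the values.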
